A study of Rattus norvegicus with 16 samples.

Results

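The genes described here encode the nuclear part of oxidative phosphorylation in the rat. They were chosen by symbol alone: every protein-coding entry of a deposited RNA immunoprecipitation table whose symbol starts with Nduf, Uqcr, Cox4 to Cox8 or Atp5, or is Sdha, Sdhb, Sdhc or Sdhd. The choice gave 77 entries of 8420 protein-coding ones (8671 genes in all), with 76 distinct symbols, since Cox6b1 had 2 identifiers. They comprised 32 subunits of complex I, 6 factors that assemble complex I, 4 subunits of complex II, 8 of complex III, 13 of complex IV and 14 of complex V. RefSeq (assembly GRCr8) names 94 protein-coding genes of this pattern when like-named genes ending in l and a digit, such as Ndufa4l2, are left out. Of these 94, 75 had an entry and 19 had none. Those 19 were not analysed here: Ndufa1, Ndufa13, Ndufb1, Ndufs4, Ndufs6, Ndufaf2, Ndufaf6, Ndufaf8, Cox4i2, Cox6a2, Cox6b2, Cox7a1, Cox7b2, Cox8b, Cox8c, Atp5if1, Atp5mk, Atp5mpl and Atp5pb.

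Oxidative phosphorylation is the last stage of respiration, carried out in the inner mitochondrial membrane. Complex I (NADH dehydrogenase) and complex II (succinate dehydrogenase) pass electrons to ubiquinone, complex III passes them on to cytochrome c, and complex IV (cytochrome c oxidase) hands them to oxygen. Complex V, the ATP synthase, makes ATP from the proton gradient that complexes I, III and IV build, and neurons depend heavily on this supply.

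All samples were RNA from the dorsal horn of the spinal cord of Rattus norvegicus of genotype WT (strain, age and sex were not used here). For N4-acetylcytidine (ac4C, an acetylated cytidine in RNA) there were 3 normal replicates, called control, and 3 replicates with bone cancer pain, each an immunoprecipitated (IP) library with its input library. The other 4 libraries, 2 IP and 2 input, came from another RNA immunoprecipitation (RIP), done in bone cancer pain with no normal counterpart. The sources used here do not give the antibody target of the RIP, and the extraction text of all 16 samples names an ac4C kit. The deposited peak lists of the bone cancer pain replicates are named CFA, an abbreviation also used for an adjuvant model of inflammatory pain, so every statement on bone cancer pain rests on the sample labels. Whether a replicate was 1 rat or several is not given, so p-values measure the spread between these samples only.

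RefSeq promoter windows, the 250 bases before each gene's start, were found for 67 of the 76 symbols. The 9 without one included Atp5h, Atp5sl, Cox6a1, Cox6c, Ndufa8, Ndufb9, Uqcr11 and Uqcrb. The letters GCGCANGCG, from the core of the site bound by NRF1, a nuclear factor known for driving respiratory genes, stood on either strand in 16 of the 67 windows (23.9%), against 7.43% of 17545 protein-coding windows. CCGGAAG, the core of sites of the ETS family, stood on either strand in 26.9% of members' windows and in 9.73% of all, and GGGCGG, the core of the SP1 site, in 32.8% and 40.9%. TCAAGGTCA (the ERR alpha site) was in 1 member window and AAGATGGC (the YY1 site) in 2, against 0.285% and 1.71% of all windows. Overlapping matches counted as 1. These are matches of letters, not measured binding. The median share of G and C was 56.8% in members' windows and 54.8% in all. Of the 16 members with the NRF1 letters 5 (31.3%) had an ac4C peak in the lists described further on, and of the 51 without them 15 (29.4%), against 37.4% of all protein-coding genes of the table. The last 150 bases before the starts of those 5 are shown as examples of what these promoters hold (GRCr8), with the NRF1 letters in capitals.
Atp5i, chr14:1464710-1464859, plus strand: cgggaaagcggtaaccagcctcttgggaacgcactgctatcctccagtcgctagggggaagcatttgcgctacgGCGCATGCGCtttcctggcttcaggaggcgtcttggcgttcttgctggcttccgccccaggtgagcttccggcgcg
Ndufs5, chr5:141264403-141264552, minus strand: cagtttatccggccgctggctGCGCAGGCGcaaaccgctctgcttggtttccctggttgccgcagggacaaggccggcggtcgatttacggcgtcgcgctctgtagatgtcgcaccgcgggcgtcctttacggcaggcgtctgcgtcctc
Ndufv3, chr20:9613636-9613785, plus strand: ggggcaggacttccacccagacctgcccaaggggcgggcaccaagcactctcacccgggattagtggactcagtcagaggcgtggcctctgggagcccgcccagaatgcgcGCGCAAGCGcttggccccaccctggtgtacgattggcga
Sdha, chr1:30764403-30764552, plus strand: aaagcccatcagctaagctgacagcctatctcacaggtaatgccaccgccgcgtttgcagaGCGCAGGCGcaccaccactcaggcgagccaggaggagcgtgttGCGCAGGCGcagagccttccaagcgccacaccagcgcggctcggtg
Uqcrc1, chr8:118468073-118468222, plus strand: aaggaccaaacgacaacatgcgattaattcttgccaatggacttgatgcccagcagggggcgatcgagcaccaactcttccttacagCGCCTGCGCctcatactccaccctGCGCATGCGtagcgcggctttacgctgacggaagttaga
The letters stood at 2 places in the windows of Sdha and Uqcrc1 and at 1 in the others. Members with the letters had a median RIP log2 fold of 2.59 (n = 16, range 1.71 to 3.36), and members without them 2.81 (n = 51, range 1.71 to 3.73). The ranges overlapped over nearly their whole width, and no test was made of this split.

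In the RIP, RNA of all 77 members was higher in both IP libraries than in both inputs, in units of RPKM (reads per length of gene and per library total). The table holds only genes that the authors called enriched, so this follows from how the table was made, and the size of the enrichment is given as a description without a test. The authors' log2 fold of the members had a median of 2.80, from 1.18 for Uqcrb to 3.73 for Uqcr10, and all 8420 protein-coding genes had a median of 2.40. Of the 77 members, 62 lay above that median. Of the protein-coding genes 25% had a log2 fold above 2.70, called the top 25% here, and these held 53 members, or 68.8%. The 25% below 2.07, called the bottom 25%, held 9 members, or 11.7%. In pair 1 the members' median log2 ratio was 2.83 against 2.45 for all, and in pair 2 it was 2.75 against 2.37.

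The genes of the table as a set took a larger share of the IP reads, which follows from how the table was made. Library totals recovered from the RPKM values were 13979452 and 15291907 reads for the inputs and 13148742 and 12929865 for the IPs. Genes of the table took 14.1% and 15.1% of the input reads and 78.9% and 79.5% of the IP reads, a rise of 5.58 and 5.28 times. Members took 0.643% and 0.658% of the table's reads in the inputs and 0.838% and 0.860% in the IPs, which is 1.30 and 1.31 times as much. Reads outside the table's genes were not analysed here.

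**Figure D1:**
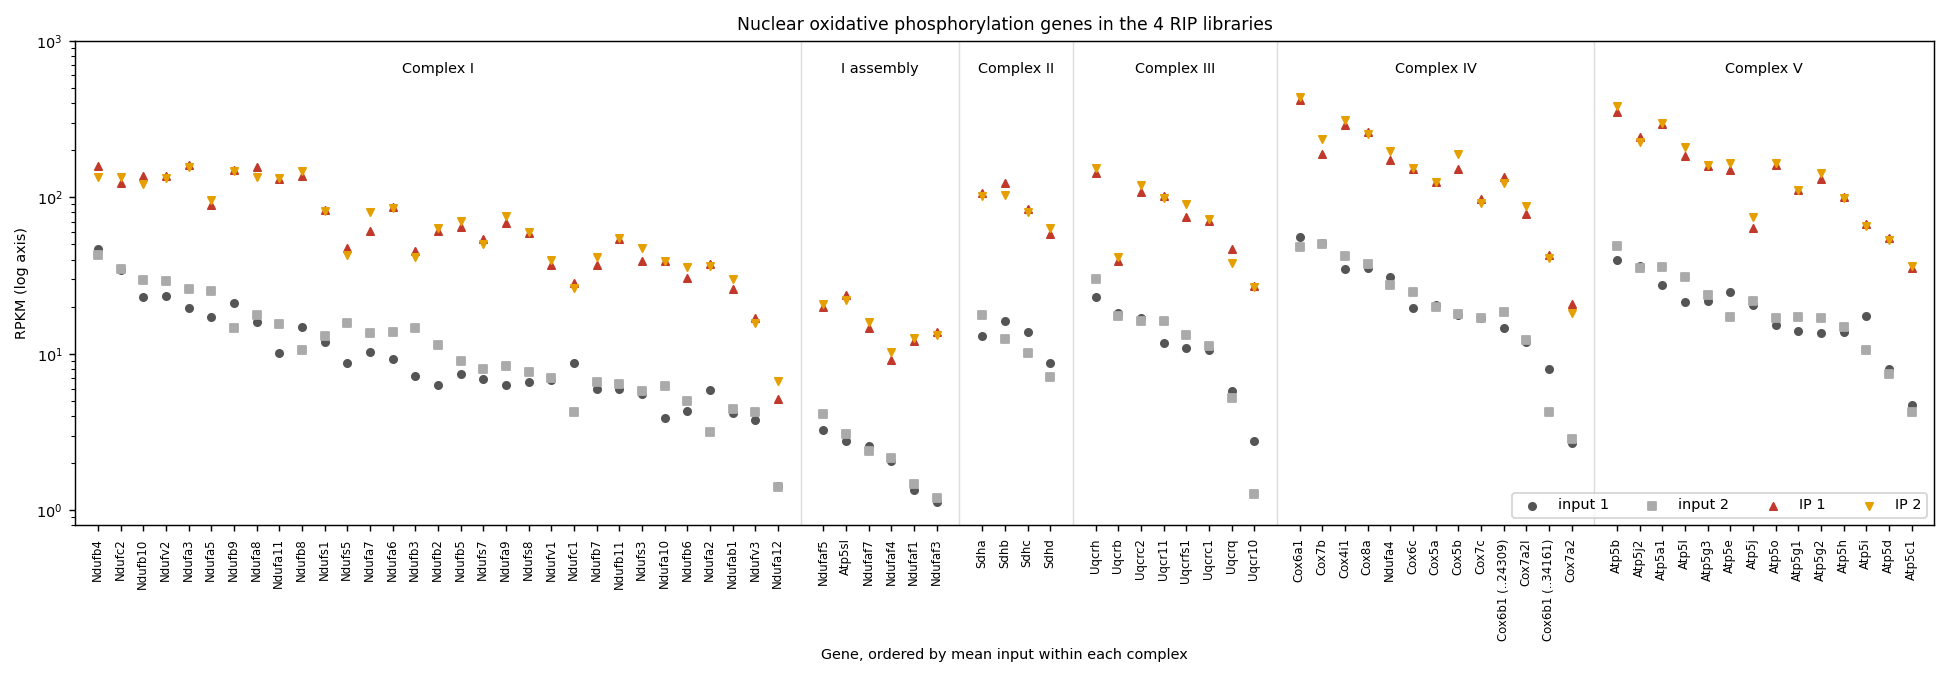
RPKM (log axis) of 76 of the 77 members in the 4 RIP libraries, ordered by mean input within each complex; each point is 1 library. For every gene shown both IP points lie above both input points, and the assembly factors of complex I have the lowest median level.

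Input RPKM of members ran from 1.13 to 55.4 and IP RPKM from 5.17 to 435, and their median input level was 12.5 against 3.33 for all protein-coding genes. The highest mean inputs belonged to Cox6a1 (51.9) and Cox7b (50.6) of complex IV, Ndufb4 (44.9) of complex I, Atp5b (44.2), which encodes the catalytic beta subunit of the ATP synthase, and Cox4i1 (38.3). The lowest belonged to Ndufaf3 (1.16), Ndufaf1 (1.41), Ndufa12 (1.43), Uqcr10 (2.03) and Ndufaf4 (2.11). By complex, the median mean input was highest in complex IV (20.2) and complex V (18.6), and lower in complexes II (13.1), III (13.0) and I (9.85). It was lowest for the 6 assembly factors (2.30), which build complex I without staying in it.

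Complex I takes electrons from NADH. Its 7 nuclear core subunits, which hold the flavin and the iron-sulfur clusters, had log2 folds between 2.36 and 3.06, with 5 of 7 in the top 25% and none in the bottom 25%. Ndufs8, a carrier of 2 iron-sulfur clusters, read 6.60 and 7.61 RPKM in the inputs and 59.0 and 60.3 in the IPs, a log2 fold of 3.06. Ndufv2, of the NADH-binding end, read 23.4 and 29.0 in the inputs and 136 and 132 in the IPs, which gave the lowest log2 fold of the core, 2.36. The ratio of Ndufv2 to Ndufs8 was higher in the inputs than in the IPs. Other core genes were Ndufv1 (log2 fold 2.48), Ndufs1 (2.72), Ndufs7 (2.80) and Ndufs3 (2.94).

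The 25 accessory subunits of complex I had the same median as the core (2.80) and a wider range, from 1.71 to 3.48, with 14 in the top 25% and 6 in the bottom 25%. At the top stood Ndufb8, whose inputs were 14.9 and 10.6 RPKM and whose IPs were 137 and 147 (log2 fold 3.48). Ndufa11 followed with inputs of 10.2 and 15.4 and IPs of 130 and 134 (3.36). Ndufa9, an accessory subunit near the ubiquinone site, had inputs of 6.35 and 8.42 and IPs of 68.1 and 75.5 (3.28). In these 3 genes both pairs' ratios were above the median of all genes. At the bottom stood Ndufb4, with inputs of 47.0 and 42.9 and IPs of 159 and 135 (log2 fold 1.71). Ndufs5 had inputs of 8.79 and 15.8 and IPs of 47.6 and 42.8 (1.87), and Ndufc2 had inputs of 34.5 and 34.8 and IPs of 123 and 134 (1.89). Ndufb4 and Ndufc2 were among the most abundant complex I RNAs in the inputs, so a high input went with a low fold there. Ndufb3 (1.99), Ndufv3 (2.03) and Ndufa12 (2.05) were the other members of complex I in the bottom 25%. The 10 Ndufa genes of complex I had a median of 2.92 and the 12 Ndufb and Ndufc genes one of 2.72.

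The 6 assembly factors of complex I had low levels but authors' folds like those of the subunits, with a median of 2.79. With a pseudocount of 1, that is 1 RPKM added to mean IP and mean input, their median was 2.34. That of the subunits was then 2.71 and that of all protein-coding genes 2.08. Ndufaf3 had inputs of 1.13 and 1.19 RPKM and IPs of 13.8 and 13.1, a log2 fold of 3.53. It rests on at least 13 and 15 input reads, which puts 95% counting limits of 2.79 to 4.55 on its log2 ratio in pair 1 and of 2.69 to 4.34 in pair 2. Ndufaf1 followed at 3.11 and Atp5sl, which RefSeq now calls Dmac2 and which serves complex I assembly, at 2.96. Ndufaf7 (2.61), Ndufaf5 (2.46) and Ndufaf4 (2.20) were lower. None of the 6 lay in the bottom 25%.

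Complex II, the link to the citric acid cycle, had all 4 subunits in the top 25%. The flavoprotein gene Sdha read 13.0 and 17.7 RPKM in the inputs and 107 and 103 in the IPs (log2 fold 2.77). The iron-sulfur gene Sdhb read 16.1 and 12.3 in the inputs and 124 and 104 in the IPs (3.00). The membrane anchors Sdhc and Sdhd had log2 folds of 2.79 and 2.94. The 4 genes were thus close together, although their 2 pairs did not order them alike: Sdha was highest in pair 1 (3.04) and lowest in pair 2 (2.54).

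Complex III held both ends of the range. Uqcrb, a small subunit beside the ubiquinone site, read 18.2 and 17.5 RPKM in the inputs and only 39.2 and 41.5 in the IPs, a log2 fold of 1.18, with 0.891% of protein-coding genes at or below it. Uqcr10, another small subunit, read 2.79 and 1.28 in the inputs and 27.1 and 26.6 in the IPs, a log2 fold of 3.73. The input values of Uqcr10 rest on at least 16 and 8 reads, with 95% counting limits of 2.53 to 4.12 in pair 1 and 3.36 to 5.62 in pair 2. Its place at the top is therefore loosely fixed, while the limits of Uqcrb (0.79 to 1.43 and 0.94 to 1.57) stay below the median of all genes in both pairs. Between these ends lay the Rieske iron-sulfur protein gene Uqcrfs1 (2.77), the core protein genes Uqcrc1 (2.72) and Uqcrc2 (2.79), Uqcr11 (2.84) and Uqcrq (2.94). Uqcrh, the hinge protein gene, was at 2.48.

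Complex IV has isoform genes that differ between tissues. Of the pairs searched, only the widely expressed form had an entry: Cox4i1, Cox6a1, Cox6b1 and Cox8a were present, while Cox4i2, Cox6a2, Cox6b2, Cox8b, Cox8c and Ndufa4l2 had none. A missing entry can come from a low level or from a low fold, so it is not read as absence. Cox6a1 had the highest level of all members, with inputs of 55.4 and 48.4 RPKM and IPs of 420 and 435 (log2 fold 3.05). Cox4i1, the regulatory subunit 4, had inputs of 34.6 and 42.0 and IPs of 288 and 313 (2.97). Cox8a had inputs of 35.5 and 37.3 and IPs of 259 and 255 (2.82). The 3 genes differed by less than 0.25 in log2 fold. Cox7a2 and Cox7a2l, the second of which takes part in joining complexes into supercomplexes, had nearly equal folds (2.80 and 2.79), at inputs of 2.69 and 2.87 for Cox7a2 and 11.8 and 12.3 for Cox7a2l. The 2 Cox6b1 entries had log2 folds of 2.97 and 2.78, and reads may be split between them. Cox5b had the highest fold of complex IV (3.26), followed by Cox6a1 and the better covered Cox6b1 entry. The lowest were Cox7b (2.07), Cox7c (2.48) and Cox5a (2.63), with Ndufa4, a gene with a complex I name whose protein belongs to complex IV, at 2.65.

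In complex V, 12 of 14 subunits lay in the top 25%. The 5 genes of the F1 head, where ATP is made, had a median of 3.00. Atp5b read 39.5 and 48.8 RPKM in the inputs and 352 and 384 in the IPs (log2 fold 3.06). Atp5a1, the alpha subunit, read 27.6 and 35.8 in the inputs and 294 and 297 in the IPs (3.22). Atp5c1, the gamma subunit that turns inside the head, read 4.70 and 4.27 in the inputs and 35.4 and 36.2 in the IPs (3.00). Atp5e, the epsilon subunit, read 24.99 and 17.3 in the inputs and 148 and 165 in the IPs (2.89), and Atp5d, the delta subunit, had a log2 fold of 2.81. Alpha and beta had the highest levels of these genes in each library and gamma, whose RPKM rests on the longest recovered length of all members, the lowest. In log2 fold the 5 genes differed by less than 0.5. The 3 genes that encode the same c subunit of the rotor ring, Atp5g1, Atp5g2 and Atp5g3, had folds of 2.83, 3.16 and 2.82. The 6 stalk and membrane genes were more scattered: Atp5o, which ties the head to the stalk, had a log2 fold of 3.34 and Atp5j, a subunit of the same stalk, one of 1.71. Atp5o had inputs of 15.3 and 17.0 and IPs of 162 and 165. Atp5j had inputs of 20.4 and 21.8 and IPs of 63.8 and 74.7, so the 2 genes were alike in the inputs and over 2 times apart in both IPs. Atp5i (2.26) and Atp5j2 (2.71) were the next lowest.

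**Figure D2:**
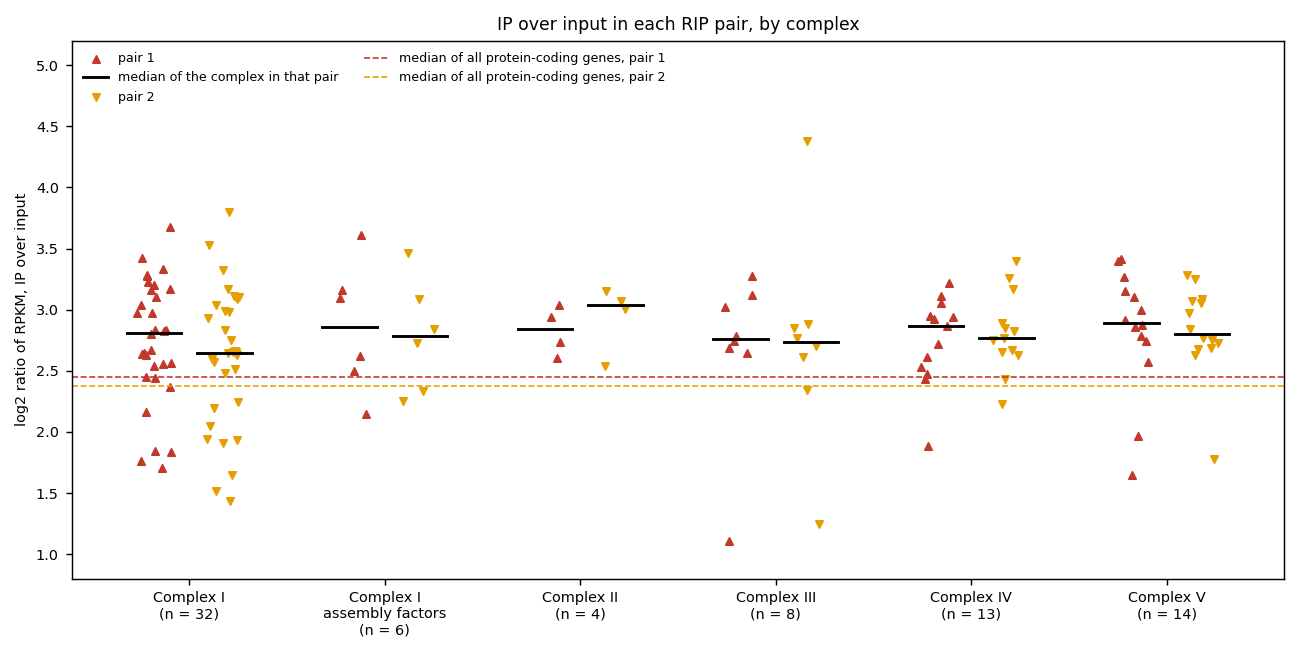
log2 ratio of RPKM, IP over input, of each member in RIP pair 1 (upward triangles) and pair 2 (downward triangles), by complex; bars are medians of the complex and dashed lines the medians of all protein-coding genes (2.45 and 2.37). The median of every complex lies above both dashed lines in both pairs, and Uqcrb and Uqcr10 of complex III mark the ends.

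Between the 2 pairs the folds moved more than the IP levels did. The log2 difference between the 2 IP libraries had an SD of 0.144 over the 77 members, and that between the 2 inputs one of 0.401. Over all protein-coding genes these SDs were 0.194 and 0.369. The members with the largest change of log2 ratio from pair 1 to pair 2 were Ndufb3 (2.64 and 1.52), Uqcr10 (3.28 and 4.38), Ndufs5 (2.44 and 1.43), Ndufc1 (1.70 and 2.63) and Ndufa2 (2.67 and 3.53). For Ndufb3 the inputs were 7.24 and 14.5 RPKM and the IPs 45.1 and 41.7, so the inputs differed by a factor of 2 and the IPs hardly. In 27 of 77 members (35.1%) the 2 ratios differed by more than 2 standard errors of counting. Over all protein-coding genes the share was 28.5%. Both shares rest on recovered reads, which are the fewest that fit. Across the 77 members the 2 pairs' ratios had a Spearman rho of 0.59 and across all 8420 genes one of 0.67. Genes of a pair share its libraries, so these values describe the libraries only.

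Members are short RNAs, with a median recovered length of 711 bases against 2366 for all protein-coding genes. Their fold was set beside that of other genes of like recovered length. Recovered lengths are the fewest bases that fit, so single genes, such as Ndufc2 at 280, may be longer than their range. Up to 500 bases the members' median was 2.77 (n = 20) and that of other genes 2.51. Between 500 and 1000 bases the medians were 2.83 (n = 32) and 2.49, and between 1000 and 2000 bases 2.94 (n = 18) and 2.43. The 6 members of 2000 to 4000 bases had 2.71 against 2.39. The members' medians were thus higher in each of these ranges, and Atp5c1, the only member over 4000 bases, was at 3.00 against 2.35. Within the members the rho of fold and length was 0.19, and of fold and mean input -0.13.

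**Figure D3:**
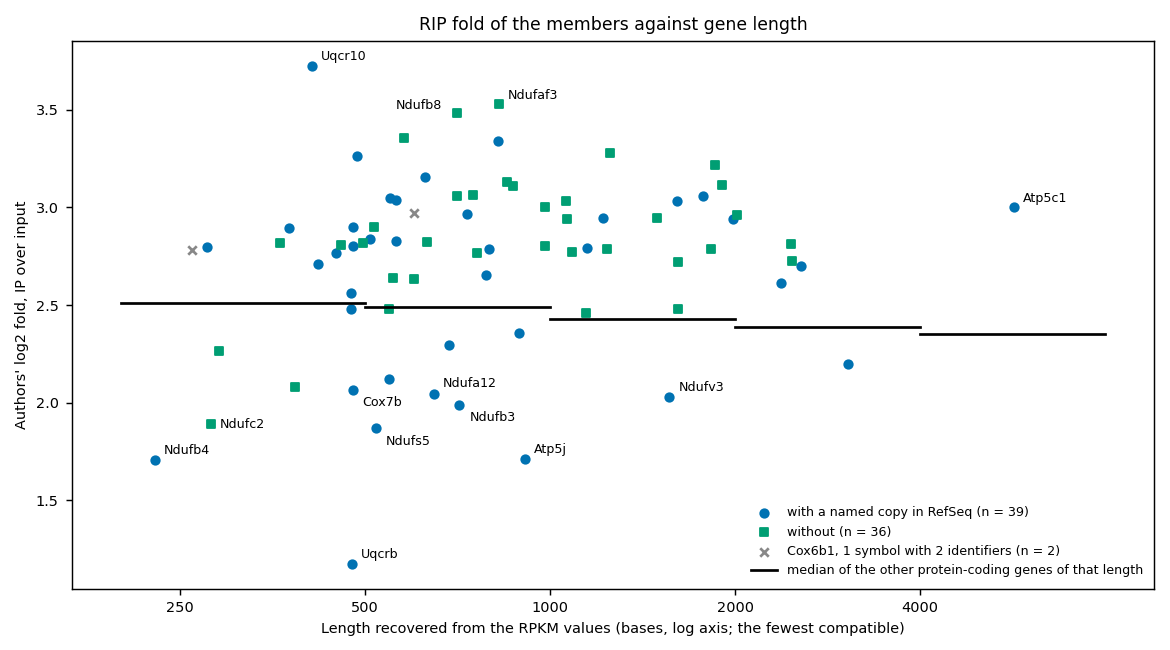
The authors' log2 fold of each member against recovered gene length (log axis), the fewest bases that fit. Circles have a copy (pseudogene or like-named gene) in RefSeq, squares have none, and crosses are the 2 Cox6b1 entries. Black lines are medians of the other protein-coding genes of that length. Most members lie above the line for their length, and 8 of the 9 lowest labelled members are circles.

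Many of these genes have copies named in RefSeq, here pseudogenes or like-named genes, and reads may be split between a gene and its copies. RefSeq names at least 1 copy for 39 members and none for 36 (Cox6b1 aside). The medians of these groups were 2.79 and 2.82, but 8 of the 9 members in the bottom 25% had a copy and 1, Ndufc2, had none. Ndufb4 has 11 named copies, Uqcrb and Atp5j 4 each, Cox7b and Ndufb3 3 each, Ndufs5 and Ndufv3 2 each and Ndufa12 1. The 3 of Ndufb3 are all like-named genes. Atp5l also has 11 named copies and had a log2 fold of 2.90. Whether and how far copies affect the folds of these members was not tested.

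Genes around the complexes had lower medians than the 2.80 of the members. Of 40 assembly factors outside the naming rule, 26 had an entry, with a median log2 fold of 2.52 and 9 in the top 25%. The citric acid cycle and pyruvate dehydrogenase list had 15 of 17 genes and a median of 2.5, with Pdha1, a subunit of pyruvate dehydrogenase, lowest at 1.41. Electron carriers and exchangers had 12 of 13 and a median of 2.48. In that list cytochrome c1, encoded by Cyc1 and itself a core subunit of complex III, was at 2.83, and Slc25a4, the ADP and ATP carrier, at 1.49. The 10 of 16 regulators of mitochondrial genes with an entry had a median of 2.18 and none in the top 25%; Ppargc1a, the coactivator PGC-1 alpha, was at 2.42 and Tfam, which packs mitochondrial DNA, at 1.92. The 19 import genes were at 2.48 and the 62 mitochondrial ribosomal genes at 2.62. The 63 cytosolic ribosomal genes, also short and abundant, were at 2.90, above the members. These lists are described side by side with no test between them.

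Markers of cell types were read in the same table. All 5 oligodendrocyte markers were in the top 25% (median 3.17), as were 3 of 4 microglial markers with an entry (median 2.93). Of the neuronal markers 3 of 5 had an entry with a median of 2.22, and the 5 inhibitory neuron markers had 2.06. The 5 astrocyte markers had 2.33, and none of 4 muscle markers had an entry. Members are expressed in all of these cells, and the part of cell types in their fold was not tested; in bulk RNA, cell number and RNA per cell cannot be told apart. The mitochondrial ribosomal RNA genes took 0.219% and 0.117% of input reads and 0.510% and 0.724% of IP reads.

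The second question of the data is whether ac4C peaks lie on these RNAs and whether they differ in bone cancer pain. Peaks at a deposited false discovery rate (FDR) of at most 0.05 were used. Of the 77 members 23 (29.9%) had such a peak in at least 1 of the 6 lists, against 37.4% of all protein-coding genes of the table, which are longer. In at least 2 lists there were 5 members (6.49%, background 12.8%), and in at least 3 lists none (background 3.86%). By complex the members with a peak were 12 of 32 in complex I, 1 of 6 assembly factors, 1 of 4 in complex II, 2 of 8 in complex III, 2 of 13 in complex IV and 5 of 14 in complex V. The members with a peak were longer (median 1494 bases against 588.5) and their median RIP log2 folds were 2.82 and 2.79. In all genes too, those with a peak were longer (3036 bases against 2032). The shares were therefore also set beside those of other genes of like recovered length. Up to 500 bases 2 of 20 members had one (10%, against 7.81% of other protein-coding genes), and between 500 and 1000 bases 8 of 32 (25%, against 21.5%). Between 1000 and 2000 bases it was 8 of 18 (44.4%, against 26.1%), and between 2000 and 4000 bases 4 of 6 (66.7%, against 39.8%). In each of these ranges of recovered length the members' share was the higher one, on few members each and with no test. Recovered lengths are the fewest bases that fit and can fall short. Ndufc2, among the 2 members with a peak up to 500 bases, had a recovered length of 280. Its 2 separate peaks in control 3 were 177 and 148 bases wide, together more than that. The range up to 500 bases thus does not settle which share is higher. Level was not matched. Over all protein-coding genes the median mean input was 4.51 RPKM with a peak and 2.82 without, and members lay at 12.5 against 3.33 for all. Among members alone it was 10.8 with a peak and 14.1 without.

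The number of members with a peak did not separate the groups. It was 6, 1 and 7 in the control lists and 2, 8 and 4 in the bone cancer pain lists, means of 4.67 ± 3.21 and 4.67 ± 3.06 (SD, n = 3 each; two-sided exact permutation test, p = 1). As a share of all protein-coding table genes with a peak, which allows for the length of each list, members made up 0.856%, 0.121% and 0.879% in control and 0.274%, 0.828% and 0.596% in bone cancer pain. The means were 0.619% ± 0.431 and 0.566% ± 0.279 (two-sided exact permutation test, p = 0.8, 1 after Benjamini-Hochberg adjustment over the 2 tests). The groups overlapped in both measures, and each had a list with hardly any members, control 2 and bone cancer pain 1. With 3 against 3 the smallest p this test can give is 0.1.

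**Figure D4:**
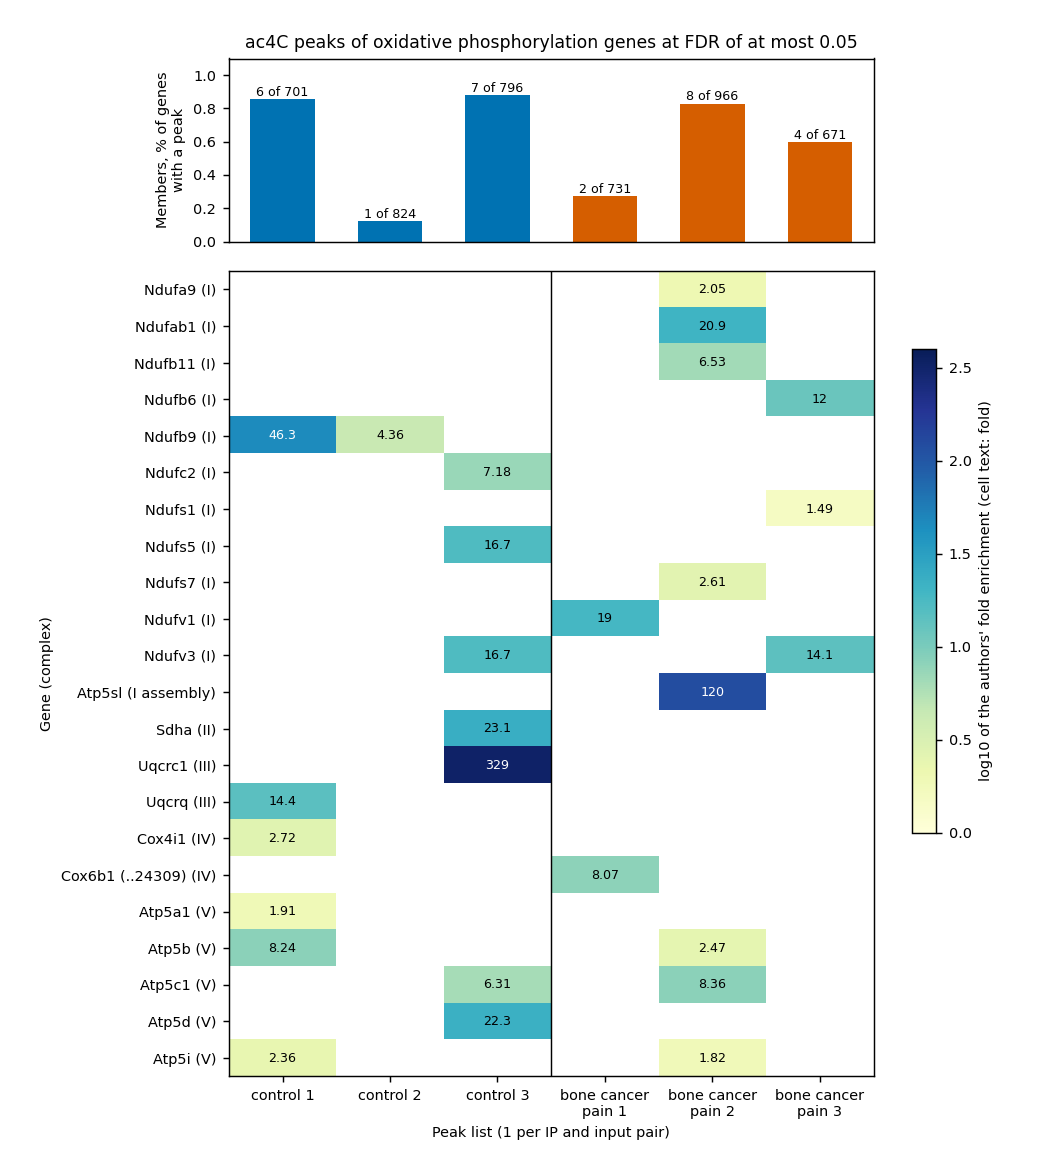
Top: members as a percent of protein-coding table genes with an ac4C peak in each list, with the counts above the bars; bottom: the authors' fold enrichment of the highest peak of 22 of the 23 members at FDR of at most 0.05 in each list (colour on a log10 scale, empty where there was no such peak). Of the 23 members 18 have such a peak in 1 list only.

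No member met the condition for a gained peak, which asked for a peak in 2 or more lists of bone cancer pain and in no control list (background 1.82% of protein-coding genes). One member met the opposite condition for a lost peak (background 1.75%): Ndufb9, an accessory subunit of complex I with peaks in control 1 and control 2. In control 1 its peak ran over chr7:98813128-98819218 (rn6, plus strand) in 4 exon blocks with an enrichment of 46.3. In control 2 it ran over chr7:98813099-98815726 in 2 blocks with an enrichment of 4.36. The 2 peaks shared 177 bases of exon. Control 3 and the 3 bone cancer pain lists had none, so 1 of 3 controls was like the bone cancer pain lists. Without control 1 or without control 2, Ndufb9 no longer met the condition. When all 3 lists of a group were required, no member was gained (background 0.107%) or lost (background 0.131%).

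Control lists alone held 9 of the 77 members (11.7%, background 13.9%), bone cancer pain lists alone 10 (13.0%, background 14.3%), and both kinds 4 (5.19%, background 9.20%). Of members as of all genes, nearly as many had a peak in control lists alone as in bone cancer pain lists alone. The 4 in both were Atp5b, Atp5i and Atp5c1 of complex V and Ndufv3 of complex I. The Atp5i peaks of control 1 (enrichment 2.36) and bone cancer pain 2 (1.82) began at the same base, 2325308 on chromosome 14, and shared 116 bases, the whole of the control peak. The Atp5c1 peaks of control 3 (6.31) and bone cancer pain 2 (8.36) shared 121 bases, and the Ndufv3 peaks of control 3 (16.7) and bone cancer pain 3 (14.1) shared 30. The Atp5b peaks of control 1 (8.24) and bone cancer pain 2 (2.47) shared none. At this FDR limit, Atp5i and Atp5c1 were thus the members whose peaks coincided over most of a peak between a control and a bone cancer pain list. Outside the limit, Ndufa8 had a peak on the same 120 bases in control 3 (FDR 0.0617) and bone cancer pain 3 (FDR 0.0759).

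Peaks in control lists only were found on Ndufb9, Ndufc2, Ndufs5, Sdha, Uqcrc1, Uqcrq, Cox4i1, Atp5a1 and Atp5d. The highest enrichment of any member was on Uqcrc1 in control 3, with 329 at chr8:117679368-117683539 and 50.2 at chr8:117688739-117690412, both on the plus strand in 3 exon blocks. Sdha (23.1) and Atp5d (22.3) were also of control 3, and Uqcrq (14.4), Cox4i1 (2.72) and Atp5a1 (1.91) of control 1. Ndufc2 had 2 peaks in control 3 (7.18 and 6.28) and Ndufs5 1 (16.7). Apart from Ndufb9, each of these rests on a single control list.

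Peaks in bone cancer pain lists only were found on 10 members, each in 1 list, among them Ndufa9, Ndufab1, Ndufb6, Ndufb11, Ndufs1, Ndufs7, Ndufv1, Atp5sl and Cox6b1. Atp5sl had 2 peaks in bone cancer pain 2, with enrichments of 120 at chr1:82414604-82416027 and 73.2 at chr1:82417300-82417975 (plus strand). Ndufab1 (20.9), Ndufb11 (6.53), Ndufs7 (2.61) and Ndufa9 (2.05) came from the same list. Bone cancer pain 1 gave Ndufv1 (19.0) and Cox6b1 (8.07), and bone cancer pain 3 gave Ndufb6 (12) and Ndufs1 (1.49), among others. Each of these too rests on a single list.

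The 31 member peaks had a median width of 179 bases, like the 180 of all 6051 peaks at this limit. Their median enrichment was 8.24, below the 20.5 of all peaks. Of the 31 peaks 25 (80.6%) spanned more than 1 exon block, against 54.3% of all peaks. In each of the 6 lists the members' median enrichment lay below the list's own: 5.48 against 15.6, 4.36 against 16.3 and 16.7 against 22.3 in control 1 to 3, and 13.5 against 16.9, 6.53 against 20.9 and 10 against 28.7 in bone cancer pain 1 to 3. Peaks of 1 gene share its RNA, and control 2 and bone cancer pain 1 had only 1 and 2 member peaks. Neither level nor length was matched in these comparisons. Members with a peak had a median mean input of 10.8 RPKM, and all protein-coding genes with one 4.51. Their median recovered lengths were 1494 and 3036 bases.

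With all deposited peaks the gains changed. Then 39 members (50.6%, background 91.2%) had a peak in at least 1 list and 15 (19.5%, background 40.3%) in at least 2. Members with a peak numbered 7, 2 and 8 in control and 24, 10 and 5 in bone cancer pain (two-sided exact permutation test, p = 0.4), and 4 members met the condition for a gain (5.19%, background 11.6%): Ndufab1, Ndufb11, Ndufs7 and Atp5sl. All 4 owed it to bone cancer pain 1, where 49281 of 50417 peaks carried 1 and the same enrichment (10.6) and FDR (0.0562). Of the 39 member peaks in that list 37, on 22 members, were of this kind. Ndufb9 remained the only lost member (1.30%, background 0.760%).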

How the data were processed

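ac4C immunoprecipitation and a RIP were sequenced from rat dorsal horn (16 samples). Per the submitters' processing notes, cutadapt 2.5, HISAT2 2.1.0, HOMER 4.10.4, featureCounts 1.6.3, DESeq2 and build rn6 were used, with no role given; which caller made the peaks is not stated in these sources. The authors deposited, per the file headers, 1 peak list per IP and input pair, with a fold enrichment (a ratio), a p-value and an FDR for each peak; the fold is the authors' own. The deposited RIP table held the authors' log2 fold, p-value and FDR, and 4 values per gene with no unit in the header. All 8671 genes' values were whole reads divided by whole lengths and totals, scaled as RPKM are, to within 5.11e-15, so these deposited values are RPKM, where a normalised signal had been assumed; recovered lengths equalled RefSeq lengths for 9 of 9 miRNA genes. Reads and lengths are the fewest whole numbers that fit. Reads were not used for a test of IP against input, since the table is cut at a threshold, its lowest log2 fold among protein-coding genes being 1.01. Counting limits are 95% limits and cover counting error only.

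Members, lists and tests were chosen with earlier results of these data known. Groups came from the sample titles. The 2 peak measures were compared by exact permutation tests (scipy 1.17.1, numpy 2.4.6, pandas 2.3.3, python 3.11.15), and the recovery of reads was tested on simulated data. A peak was given to a gene by its identifier. Genes named were those with a peak at the FDR limit, the 3 highest and 3 lowest folds of each complex, the 5 highest and 5 lowest inputs, the 5 largest differences between pairs, isoform pairs and core subunits; others were added for description after their values were seen. Peak limits, lists left out, a replicate block, a pseudocount, an input filter and subunits alone were tried as alternatives. Peak sequences and transcript regions need an rn6 genome and were not analysed here. Some items are not reported here by name.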

Additional observations from a re-analysis of the deposited data

How the results depend on the processing

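The difference in the number of members with a peak (bone cancer pain minus control, 0) was 7.33 with all deposited peaks and ran from -1.83 to 1.33 when single lists were left out; the exact permutation p stayed between 0.4 and 1 over the 10 alternatives. The difference in their share (-0.0529 percentage points) was 0.0199 at an FDR of at most 0.01 and ran from -0.302 to 0.0932 when lists were left out, so its direction was not stable (exact p 0.2 to 1). Gained members were 4 with all deposited peaks and 0 under every other alternative run. Lost members ran from 0 to 1 when lists were left out, being 0 without control 1 or control 2, and were 0 when 3 lists against 0 were required. The members' median RIP log2 fold of 2.80 was 2.69 with a pseudocount of 1, where that of all protein-coding genes was 2.08, and stayed between 2.75 and 2.83 in single pairs. After seeing the data, members without a named copy (2.82) and members of up to 1000 bases (2.80) were added.

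With the replicate number as a block, a sign-flip test of the 3 pairs of lists left the differences at 0 and -0.0529 (exact sign-flip p = 1 for both, smallest possible 0.25), and the mean of the RIP ratios within pairs gave a median of 2.82. The ac4C numbers did not pair the samples: deviations of same-numbered lists correlated at -0.00859, 0.00361 and -0.00632 over 3805 genes. Depth limits single genes most: 5 members had an input library with fewer than 20 recovered reads, and the true reads may be more. The depth behind the ac4C peaks is unknown.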
